A study of Mus musculus with 6 samples.

Results

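The Rab family of small GTPases was examined in mouse bone marrow with and without the microRNA locus miR-181a2b2. Its members were taken as the protein-coding genes of the deposited count table whose symbol is Rab followed by a number and at most a single letter, which gave 59 of 49315 genes. Of these 50 had enough reads to be tested and 9 did not. Messenger RNA was sequenced from marrow of mice kept on the HFSC diet, named here as in the labels, in which the blood supply of a hindlimb had been cut off (hindlimb ischemia). The WT group held 3 libraries from mice of the strain labelled miR-181a2b2flox/flox (replicates 1, 3 and 4). That label names a locus flanked by recombination sites, which was taken here as intact. The KO group held 3 libraries from mice labelled miR-181a2b2-/- (replicates 2, 3 and 4), so diet and surgery were common to both groups. The labels used here give no age or sex, and do not say how or in which cells the locus was deleted, nor whether each library is from its own animal. The p-values therefore measure only the spread between these samples, whose source the labels do not give further. The question was how strongly each Rab gene is expressed in this marrow, how its level compares between KO and WT, and whether the members that act on secretory granules differ from the rest.

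A Rab protein is a molecular switch on membranes. Bound to GTP it recruits effectors that move, tether and fuse vesicles of a particular compartment, exchange factors (GEFs) load it with GTP, and GTPase-activating proteins (GAPs) switch it off. A lipid is attached to cysteines at its end by a geranylgeranyl transferase together with an escort protein (Chm or Chml), and GDP dissociation inhibitors (GDIs) such as Gdi2 carry the inactive form through the cytosol. In marrow the family is best known for granule release by neutrophils, mast cells and platelets, which depends on Rab27a and its relatives, and for phagosome maturation through Rab5 and Rab7.

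The members shared the site of lipid attachment. The choice by symbol did not read the sequence, but this site is part of the family's description above, so it is no separate support. Its share over all genes was not counted. In the GENCODE transcripts of all 59 members the last 4 codons before the stop held at least 1 cysteine codon (TGT or TGC). With C for a cysteine codon and X for any other, those 4 codons read XCXC in 20 members, XXCC in 15, CXXX in 15, CCXX in 6 and XCCX in 3. The closing codons of 8 members that carry the results are shown, with the cysteine codons among the last 4 in capitals and the stop codon at the end. They are given because they let the arrangement be compared between granule members (the first 4) and the most abundant or most shifted others.
Rab27a: aaggagaaggggttgTGTggcTGTtga
Rab3d: ccacagccgagcagcTGCagcTGTtag
Rab44: accaagagagctggcTGCTGCcactga
Rab37: cgctccagctgcTGCtcctttgtgtga
Rab7: gcctccgcagaaagcTGCagtTGTtga
Rab5c: agccggagccagTGCTGCagcaactga
Rab2a: cagcaggcagggggaggcTGCTGTtga
Rab28: cggagctccatgTGTgcagtgcagtga
Rab27a, Rab3d and Rab7 ended in cysteine codons separated by another codon, and Rab2a in adjacent ones. Rab44 and Rab5c had their pair followed by other codons, and Rab37 and Rab28 held a single one among the last 4. In Rab37 another cysteine codon (lower case) stood directly before those 4, which was not so in Rab28. The same was seen in Rab11a, Rab11b, Rab21, Rab25 and Rab30, so CXXX does not mean that a pair is missing. Most members encoded about the same length of protein, for example 221 codons for Rab27a and 207 for Rab7, whereas Rab44 had 973 codons. Coding sequences were most alike in Rab8a and Rab8b (78.4% identical bases over the longer of the pair), with a median of 52.5% over all 1711 pairs.

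The libraries held between 33861440 and 40359093 counts, and the limit that 0 counts allow (3 counts) ranged from 0.0716 to 0.0891 CPM (counts relative to library size, scaled by edgeR's TMM factors). Over the 16956 genes tested, edgeR's quasi-likelihood test called 159 higher and 258 lower in KO (adjusted p under 0.05), with library totals as the only scaling 87 and 403, and with length and GC trends taken out 158 and 161. Marrow identity was checked with marker lists. Markers of late neutrophils (12 genes) summed to 46486 to 60139 CPM in WT and 69832 to 85908 CPM in KO, and markers of adipocytes (8 genes), checked because the extraction text in the labels names white adipose tissue, to 44.7 to 67.5 CPM in WT and 57.8 to 79.2 CPM in KO. The hairpins of the deleted locus, Mir181a-2 and Mir181b-2, had 0 counts in all 6 libraries of this poly(A)-selected RNA, so the labels could not be checked on the targeted locus. By edgeR, of the 9 primary granule neutrophil markers 6 rose and 0 fell, and of 12 late neutrophil markers 3 rose and 0 fell. Of 10 erythroid markers 2 fell and 0 rose, and of 14 immediate early genes 12 fell and 0 rose. Over all genes tested edgeR called 0.938% higher and 1.52% lower. All genes of these 4 lists lay on the side named. DESeq2 called 9, 11, 4 and 14 of them in turn, beside 5.05% higher and 4.62% lower over all genes. Xist, the X-inactivation transcript of female cells, was above 1 CPM in WT replicates 3 and 4 and KO replicate 2 and below it in the other 3 libraries, so that libraries of the same group differed in it. Whether a shift in cell types, sex or handling had a part in the Rab values below was not tested. In such bulk samples fewer cells of a type and less RNA per cell cannot be told apart.

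Levels between genes are compared as RPKM, that is CPM per kilobase of merged exons. They spanned from Rab7 at 134 RPKM, averaged over the 6 libraries, to Rab9b at 0.0128 RPKM. The median of the members tested was 10.98 RPKM, 26 members exceeded 10 RPKM, and 17 lay under 1 RPKM. The 5 most abundant members made up 37.1% of the family total. Rab7, which drives fusion of late endosomes with lysosomes (chromosome 6, 87999106 to 88045270, GRCm38), measured 120.2, 134 and 116 RPKM in WT and 142, 145 and 149.8 RPKM in KO, with libraries given here and below in the order of their replicate numbers. Rab5c, one of 3 Rab5 genes that govern fusion of early endosomes (chromosome 11, 100715009 to 100738215), measured 109, 104 and 101 RPKM in WT and 121, 115 and 122 RPKM in KO. The most abundant granule member was Rab44, a large Rab of granulated leukocytes with calcium-binding EF-hand motifs (chromosome 17, 29114145 to 29148980), at 50.8, 75.0 and 66.7 RPKM in WT and 81.3, 78.9 and 75.5 RPKM in KO. Rab7 and Rab5c stood apart from all other members in every library, whereas the next 3 overlapped. Rab2a, which acts between the ER and Golgi, had a mean of 56.1 ± 1.70 RPKM in WT and 72.2 ± 6.53 in KO (SD, n = 3 each). Rab1b, which starts transport from the ER, had 57.3 ± 0.970 and 70.0 ± 2.88 RPKM. Part of the Rab7 count may belong to its processed pseudogenes, since 12.7% of its 50-base runs also occur in transcripts of other genes and how such reads were treated is not stated in the labels.

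**Figure D1:**
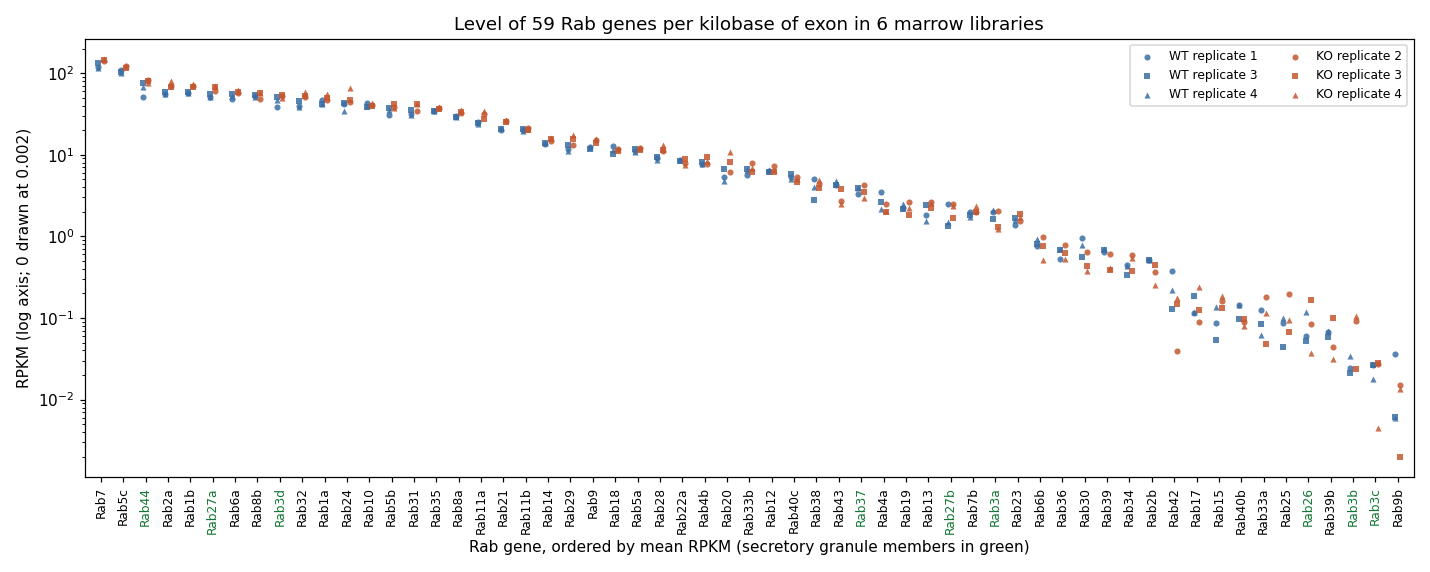
Level of each of the 59 Rab genes in RPKM on a log axis, ordered by the mean over libraries, with a point for each of the 3 WT (blue) and 3 KO (orange) libraries and secretory granule members named in green (1 value of 0, for Rab9b, is drawn at the bottom). Rab7 and Rab5c lead, Rab44, Rab27a and Rab3d are the granule members among the 10 most abundant genes, and the remaining granule members lie under 10 RPKM.

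None of the 50 Rab genes tested passed the threshold between KO and WT in edgeR, while 2.46% of all genes tested did (0.938% higher and 1.52% lower). The smallest adjusted p was 0.0604, for Rab28. The values nevertheless leaned to one side. Of the 50 members 38 lay above 0 and 12 below, beside 48.9% above 0 over all genes tested, and their median log2 fold change (KO minus WT, from 3 libraries each and given below ± its SE) was 0.17 beside -0.0083 over all genes. At an unadjusted p under 0.05, 16 members were higher, beside 11.7% of all genes, and 2 were lower, beside 12.2%. In 20 members every KO library lay above every WT library, which held for 14.4% of all genes tested, and in 3 every KO library lay below, which held for 14.7%. DESeq2 called 7 members higher, beside 5.05% of all genes, and 1 lower, beside 4.62%. With limma 6 were called higher, beside 2.92%, and 1 lower, beside 3.31%. The genes called higher by both were Rab2a, Rab11a, Rab21, Rab27a, Rab28 and Rab32, with Rab1b added in DESeq2, and the gene called lower by both was Rab43. All members were measured in the same 6 libraries, so these counts do not come from independent observations.

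The lean was seen in each KO library. Relative to the WT mean, on a log2(CPM + 1) scale, the median member lay at 0.15, 0.12 and 0.18 in KO replicates 2, 3 and 4 and at -0.013, 0.021 and -0.0079 in WT replicates 1, 3 and 4. The same median over all genes tested stayed between -0.013 and 0.0055 in the 6 libraries. The reference is the mean of the same WT libraries, so WT values near 0 follow from that choice. TMM scaling likewise holds the median over all genes near 0. Summed over the family, Rab transcripts measured 1085, 1156 and 1082 RPKM in WT and 1259, 1275 and 1354 RPKM in KO, with no overlap between the groups. The median merged exon length of the members tested was 3806 bases and that of all genes tested 3781 bases. With library totals as the only scaling the members' median was 0.10 and that of all genes -0.080, with 32 of 50 members above 0. With exon length and GC trends taken out of each library the medians were 0.23 and 0.046, and Rab21 and Rab28 were called higher (adjusted p = 0.0480 and 0.0432, edgeR), beside 0.932% of all genes. Without KO replicate 3, 53 members were tested, of which Rab2a and Rab11a were called higher, beside 1.81% of all genes, and Rab43 lower, beside 3.46%. With no filter on low counts edgeR called Rab2a, Rab11a, Rab28 and Rab32 higher, beside 2.15%, and Rab43 lower, beside 2.76%. The count of 16 at an unadjusted p under 0.05 was 8 without KO replicate 4 and 9 without WT replicate 4, and the number above 0 ranged from 32 to 40 over the alternatives with all 50 members tested.

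**Figure D2:**
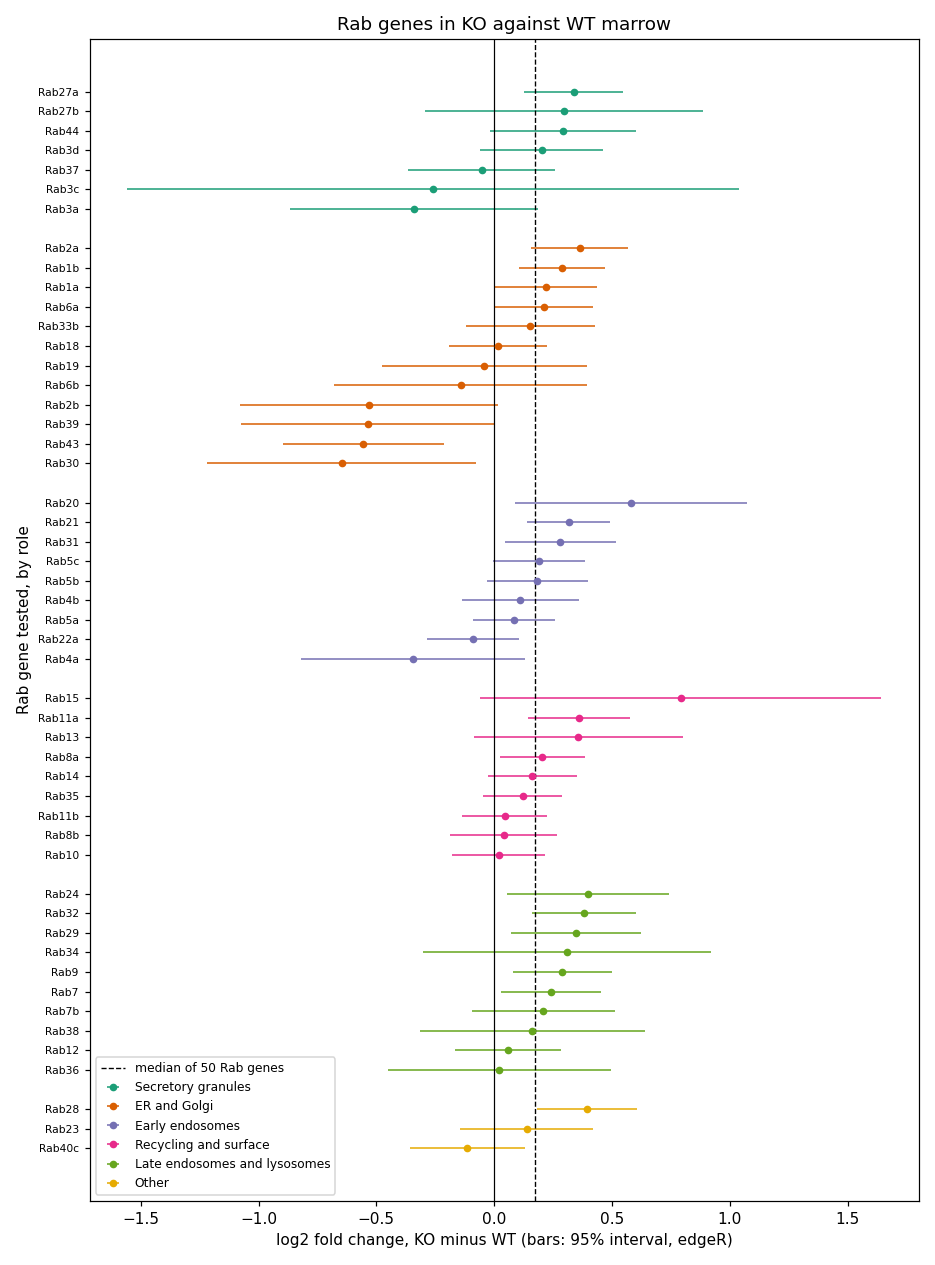
Log2 fold change (KO minus WT) of the 50 Rab genes tested with its 95% interval from edgeR, grouped by role, and the median of the members as a dashed line. Values of late endosome and recycling members all lie above 0 (5 of them fall below 0 under library totals), those of ER and Golgi members lie on both sides, and the interval excludes 0 for 18 genes, none of which passed after adjustment over all genes.

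Of the 9 secretory granule members 7 were tested, and none passed in edgeR. Their median log2 fold change was 0.20 and that of the 43 other members tested 0.16, and the difference between these medians was not tested. Their order was not the same in every library. Relative to the WT mean on the log2(CPM + 1) scale, the granule median lay at 0.22, 0.058 and 0.13 in KO replicates 2, 3 and 4 and that of the other members at 0.14, 0.14 and 0.22, so granule members were higher in KO replicate 2 and lower in KO replicates 3 and 4. Rab27a docks granules and lytic vesicles at the plasma membrane and is lost in the pigment and immune disorder Griscelli syndrome. It lies on chromosome 9, 73044854 to 73097629 and measured 198, 214 and 195 CPM in WT and 236, 265 and 266 CPM in KO. All KO libraries were above all WT libraries. Its log2 fold change was 0.34 ± 0.093, with a 95% interval from 0.13 to 0.55 and an edgeR adjusted p = 0.0820. The gene passed in DESeq2 (adjusted p = 0.0131) and limma (adjusted p = 0.0447), and the value stayed between 0.31 and 0.40 when any library was left out.

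Rab44 measured 257, 380.0 and 338 CPM in WT and 412, 399.7 and 383 CPM in KO. The groups did not overlap, but WT replicate 1 was well below the other WT libraries, and WT replicate 3 reached nearly the level of KO replicate 4. The log2 fold change was 0.29 ± 0.14, with an interval from -0.017 to 0.60 (edgeR adjusted p = 0.232), and it was 0.15 at its lowest and 0.42 at its highest when a library was left out. Rab3d, a Rab of mast cell and exocrine granules (chromosome 9, 21907491 to 21918192), measured 160.3, 216 and 197 CPM in WT and 223, 228 and 208 CPM in KO. Its groups overlapped, since WT replicate 3 exceeded KO replicate 4, and WT replicate 1 was again the lowest library. The difference of 0.20 ± 0.12 did not exceed the spread between replicates (edgeR adjusted p = 0.324). Summed markers of eosinophils, basophils and mast cells were also lowest in WT replicate 1. They summed to 691, 1319 and 1323 CPM in WT and 1742, 1280.4 and 1719.8 CPM in KO. Of the 9 markers 0 passed the test. In log2 fold change 3 lay above 0 and 6 below, with a median of -0.16, so the sum does not give the side of most of them. Their part in the Rab44 and Rab3d values was not tested.

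The other granule members were scarcer. Rab27b, the close relative of Rab27a in platelets and secretory cells, measured 26.3, 14.5 and 16.2 CPM in WT and 26.9, 17.9 and 25.1 CPM in KO. Its levels fell into a high set (WT replicate 1, KO replicates 2 and 4) and a low set (WT replicates 3 and 4, KO replicate 3) that crossed the genotypes. The summed megakaryocyte and platelet markers, of which 0 of 8 passed the test, were high in the same 3 libraries, at 443, 282 and 297 CPM in WT and 558, 278 and 462 CPM in KO. The log2 fold change of 0.30 ± 0.25 was smaller than this spread (edgeR adjusted p = 0.518), and the part of platelet-forming cells in it was not tested. Rab37, found on mast cell granules, measured 17.8, 20.6 and 20.8 CPM in WT and 22.8, 18.5 and 15.9 CPM in KO and differed by -0.052 ± 0.14 on the log2 scale, with overlap between the groups (edgeR adjusted p = 0.853). Rab3a, best known from synaptic vesicles, measured 4.45, 3.63 and 4.75 CPM in WT and 4.54, 2.88 and 2.72 CPM in KO, again with overlap, and a log2 fold change of -0.34 ± 0.23 (edgeR adjusted p = 0.407). Rab3c was near the floor, at 0.318, 0.319 and 0.215 CPM in WT and 0.327, 0.335 and 0.0534 CPM in KO, and its interval from -1.56 to 1.04 leaves a difference undetectable at this depth. Rab3b and Rab26 were not tested and stayed at or under 0.475 CPM.

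**Figure D3:**
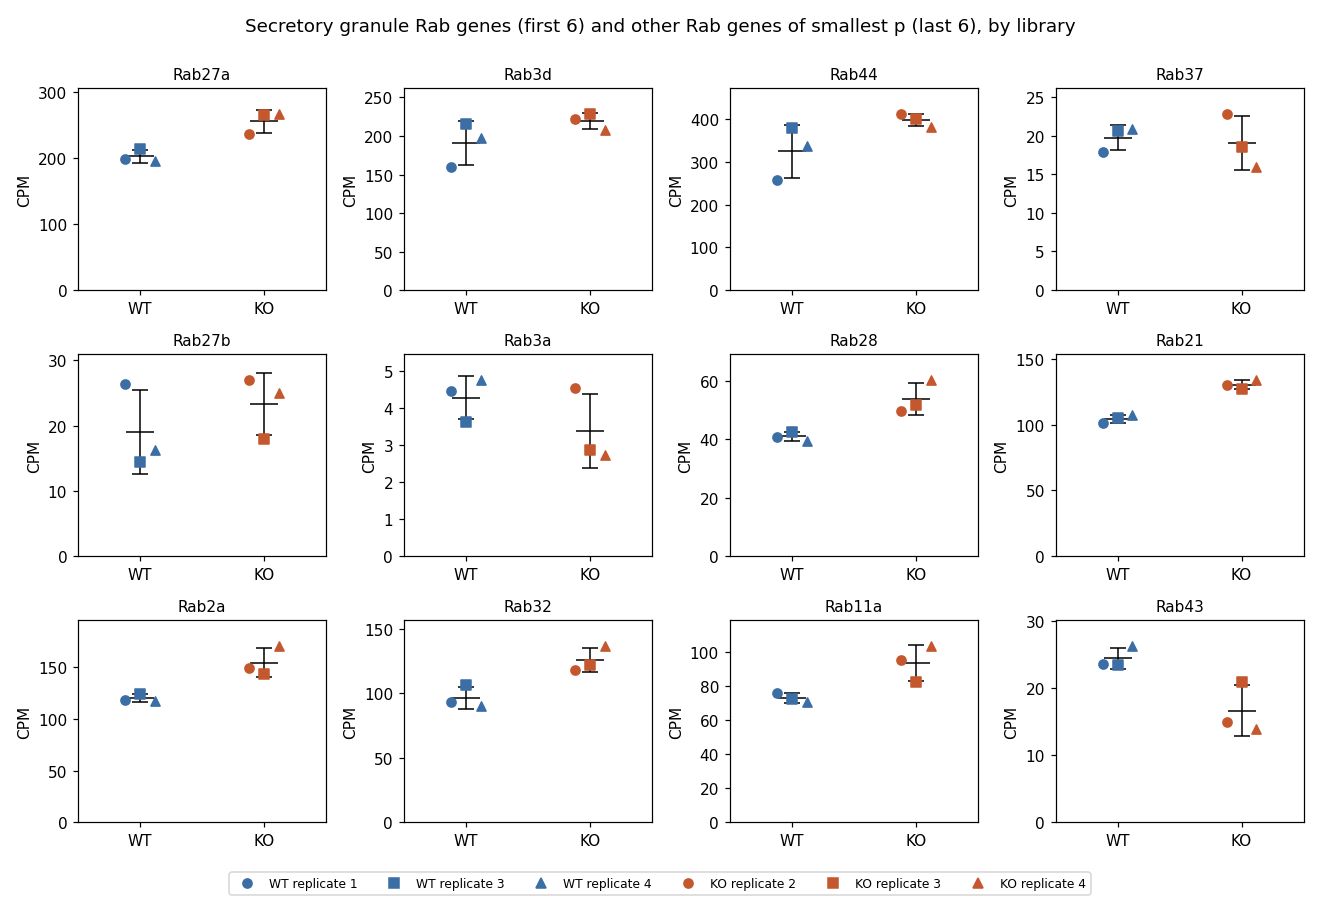
CPM of 6 secretory granule Rab genes and of 6 other Rab genes with the smallest p by library, with the mean and SD of each group in black. Rab27a, Rab28, Rab21, Rab2a, Rab32 and Rab11a show every KO library above every WT library, Rab44 does too with a low WT replicate 1, Rab43 shows the reverse, and Rab27b, Rab37, Rab3d and Rab3a overlap between groups.

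Seen as sums, granule members amounted to 148, 188 and 172 RPKM in WT and 204, 208 and 200.4 RPKM in KO and all other members to 937, 968 and 910.2 RPKM in WT and 1055, 1066 and 1154 RPKM in KO. Both sums were higher in every KO library than in any WT library. Of the family total, granule members made up 13.6, 16.3 and 15.9% in WT and 16.2, 16.3 and 14.8% in KO, and this share overlapped between the groups. Late neutrophil markers lay higher in every KO library in the same comparison, and summed erythroid markers (10 genes) lower, at 4932 to 7176 CPM in WT and 3764 to 4561 CPM in KO. Primary granule neutrophil markers (9 genes) summed to 5343 to 5643 CPM in WT and 6866 to 8161 CPM in KO and plasma cell markers (6 genes, of which 1 rose) to 309 to 440.5 CPM in WT and 559 to 624 CPM in KO, also without overlap. Most of the plasma cell sum came from Xbp1, the gene that rose, and Jchain, with log2 fold changes of 0.55 and 0.90. Sdc1, Prdm1 and Tnfrsf17 lay between 0.023 and 0.27, and Irf4 at -0.99. Mature B cell markers overlapped as a sum, but 7 of 8 lay below 0. Of these 0 were called by edgeR and 6 were called lower by DESeq2, beside 4.62% of all genes. B cell precursor markers also overlapped as a sum, and all 10 lay below 0, with a median of -0.57 and 0 called by either. Sums of monocyte markers and of T and NK cell markers overlapped too. The part of these cell types in the Rab sums was not tested.

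**Figure D4:**
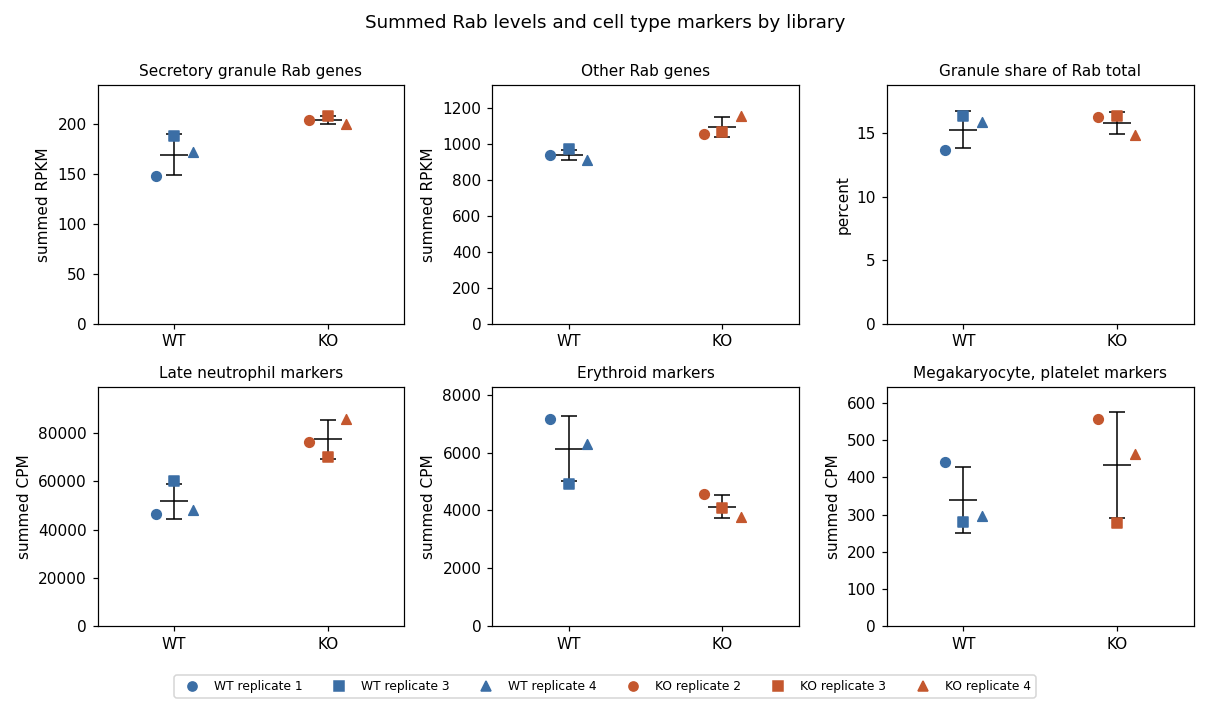
Summed RPKM of granule and other Rab genes, the granule share of the family total in percent, and summed CPM of 3 marker lists by library, with the mean and SD of each group in black. Both Rab sums and the neutrophil sum are higher in all KO libraries, the erythroid sum is lower, and the granule share and the megakaryocyte sum overlap.

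The 12 ER and Golgi members tested had values on both sides, 6 above and 6 below 0, with a median of -0.013. The abundant ones lay above. Rab2a (chromosome 4, 8535644 to 8607778) measured 118, 124 and 117 CPM in WT and 149, 143 and 169.7 CPM in KO, without overlap, and had a log2 fold change of 0.36 ± 0.092 (edgeR adjusted p = 0.0681). Without KO replicate 3 it was called in edgeR (adjusted p = 0.0455). Rab1b (chromosome 19, 5099205 to 5107072) measured 129, 133 and 129 CPM in WT and 157, 153 and 166 CPM in KO, also without overlap, and differed by 0.29 ± 0.081 on the log2 scale (edgeR adjusted p = 0.0835). Rab1a, its partner gene in ER export, and Rab6a, which organises traffic back through the Golgi, had values of 0.22 and 0.21, without overlap between groups. Rab6a shares 19.0% of its exon bases with Mrpl48 on the opposite strand. Rab18, a Rab of the ER and lipid droplets, was level at 0.016, with an interval from -0.19 to 0.23 and a value below 0 under library totals, and Rab33b, which links Golgi vesicles to autophagy, lay at 0.15.

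The ER and Golgi members below 0 were scarce, none above 3.71 RPKM. Rab43, which acts between the ER and Golgi (chromosome 6, 87788853 to 87812164), measured 23.6, 23.4 and 26.2 CPM in WT and 15.0, 20.9 and 13.8 CPM in KO. Every KO library was below every WT library, and KO replicate 3 was the closest to WT. The log2 fold change of -0.56 ± 0.15 did not pass (edgeR adjusted p = 0.0807), and without KO replicate 3 it was -0.75 and passed (edgeR adjusted p = 0.0178). Of its exon bases 75.4% are shared with Gm45140, an overlapping protein-coding gene on the same strand, so that the Rab43 value is uncertain. Rab30, a Golgi Rab, measured 9.14, 5.33 and 7.61 CPM in WT and 6.27, 4.16 and 3.66 CPM in KO, with overlap and a log2 fold change of -0.65 (edgeR adjusted p = 0.162). Rab39 and Rab2b had values of -0.53 and -0.53 without overlap, at mean levels of 0.567 and 0.436 RPKM. Rab2b shares 64.0% of its exon bases with Gm43766 on the opposite strand, and the labels do not give the strand setting of the counting. Rab6b and Rab19 lay at -0.14 and -0.041, with overlap.

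Of the 9 early endosome members tested 7 lay above 0 and 2 below, with a median of 0.18, and Rab22a moved above 0 with length and GC trends taken out. Rab21, which helps to take up integrins (chromosome 10, 115287084 to 115315594), measured 101, 105 and 107 CPM in WT and 130.0, 127 and 134 CPM in KO, without overlap between the groups. The difference of 0.32 ± 0.078 on the log2 scale (edgeR adjusted p = 0.0644) stayed between 0.29 and 0.34 with any library left out. The Rab5 genes lay at 0.083 for Rab5a, 0.18 for Rab5b and 0.19 for Rab5c, the latter pair without overlap between groups. Rab5c measured 239, 229 and 222 CPM in WT and 266, 253 and 267 CPM in KO (edgeR adjusted p = 0.216). Rab31, which carries cargo from the Golgi to endosomes, and Rab20, a Rab of phagosomes, had values of 0.28 and 0.58, both with overlap. Rab20 also shares 25.6% of its exon bases with a transcript on the opposite strand. Rab4a and Rab4b, of the fast recycling route, lay at -0.34 and 0.11, and Rab22a, a relative of Rab31, at -0.088. The Rab4b value is uncertain, since 65.0% of its exon bases also belong to Gm21983 on the same strand.

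All 9 recycling and cell surface members tested lay above 0, between 0.019 for Rab10 and 0.79 for Rab15, with a median of 0.16, but with library totals as the only scaling Rab8b, Rab10 and Rab11b lay below 0. Rab15 reached only 0.854 CPM at most, in KO replicate 4, and 2 of 3 WT libraries met the CPM level of the low-count filter against all 3 KO libraries. Rab11a, the main Rab of the slow recycling route (chromosome 9, 64715299 to 64737758), measured 76.1, 72.5 and 70.8 CPM in WT and 95.5, 82.5 and 103 CPM in KO, without overlap and highest in KO replicate 4. In log2 terms it differed by 0.36 ± 0.10 (edgeR adjusted p = 0.0789), and without KO replicate 3 it was called (adjusted p = 0.0311, edgeR). Rab8a, Rab14 and Rab35, which carry membrane to the cell surface, had values of 0.20, 0.16 and 0.12, each without overlap. Rab10, which moves glucose transporter vesicles, and Rab8b, among the most abundant members, were level, with intervals from -0.18 to 0.22 and from -0.19 to 0.27. Rab13 lay at 0.36, with overlap.

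All 10 late endosome and lysosome members tested also lay above 0, with a median of 0.27, but with library totals as the only scaling Rab12 and Rab36 lay below 0. Rab7, the family's most abundant gene, measured 314, 349 and 302 CPM in WT and 369, 379 and 391 CPM in KO, without overlap. On the log2 scale the groups differed by 0.24 ± 0.10, with an interval from 0.027 to 0.46 (edgeR adjusted p = 0.166). Rab32, which builds lysosome-related organelles (chromosome 10, 10545002 to 10558265), measured 93.4, 106 and 89.9 CPM in WT and 118, 122 and 136 CPM in KO, again without overlap, and had a log2 fold change of 0.38 ± 0.10 (edgeR adjusted p = 0.0706). Rab9, which returns receptors from late endosomes to the Golgi and lies on the X chromosome (166457253 to 166479867), measured 21.97, 20.3 and 21.8 CPM in WT and 26.2, 24.5 and 27.6 CPM in KO, with a log2 fold change of 0.29 ± 0.094 (edgeR adjusted p = 0.112). In the libraries under 1 CPM of Xist, Rab9 measured 21.97 CPM in WT replicate 1 and 24.5 and 27.6 CPM in KO replicates 3 and 4. In those over 1 CPM of Xist it measured 20.3 and 21.8 CPM in WT replicates 3 and 4 and 26.2 CPM in KO replicate 2. The part of sex in the Rab9 value was not tested. Rab29, a binding partner of the kinase Lrrk2, and Rab24, linked to autophagy, lay at 0.35 and 0.40, without overlap. Rab24 shares 62.4% of its exon bases with Prelid1 on the opposite strand, so its value is uncertain. Rab7b lay at 0.21 without overlap, and Rab34, Rab38, Rab12 and Rab36 between 0.022 and 0.31 with overlap.

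Rab28, a Rab of cilia and photoreceptors, had the smallest p of the family (chromosome 5, 41624976 to 41708157). It measured 40.8, 42.6 and 39.5 CPM in WT and 49.7, 51.6 and 60.1 CPM in KO, without overlap. Its log2 fold change was 0.39 ± 0.094, or 1.31-fold with an interval from 1.13 to 1.52 (edgeR adjusted p = 0.0604). DESeq2 and limma called it (adjusted p = 0.0135 and 0.0368). Rab23, which restrains Hedgehog signalling at the cilium, lay at 0.14, and Rab40c, part of a ubiquitin ligase, at -0.11. The 9 members not tested, Rab3b, Rab9b, Rab17, Rab25, Rab26, Rab33a, Rab39b, Rab40b and Rab42, ranged from 0 to 0.480 CPM in single libraries. Differences in them were not detectable at this depth.

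Within sets of close relatives, levels and differences were often uneven. By RPKM, the level of Rab2a was 106 to 112 times that of Rab2b in the WT libraries and 151 to 310.3 times in the KO libraries. These ratios are uncertain, since Rab2b had only 52, 66 and 40 counts in KO and shares 64.0% of its exon bases with Gm43766. Rab6a was 55.7 to 119.9 times as abundant as Rab6b over the 6 libraries, and Rab7 61.2 to 74.0 times as abundant as Rab7b. Rab1a and Rab1b, by contrast, were at 46.9 and 63.6 RPKM, and Rab11a and Rab11b at 27.9 and 20.4 RPKM. The Rab11b values are uncertain, since 13.6% of its 50-base runs also occur in transcripts of other genes, mostly the pseudogene Rab11b-ps2. In the log2 fold change, Rab11a lay at 0.36 and Rab11b at 0.045, and Rab8a at 0.20 and Rab8b at 0.040. Rab3d and Rab3a lay at 0.20 and -0.34, Rab32 and Rab38 at 0.38 and 0.16, and Rab31 and Rab22a at 0.28 and -0.088. Whether the relatives differ from each other in their response was not tested.

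Because the deleted locus encodes miR-181a and miR-181b, the 3' UTRs of the members were searched for matches to their shared seed (bases 2 to 8, in capitals in the RefSeq mature sequences, GRCm38.p6). The same mature microRNAs are also made from a locus that the labels do not name as deleted.
miR-181a-5p: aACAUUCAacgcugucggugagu
miR-181b-5p: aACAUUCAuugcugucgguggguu
Matches counted were TGAATGTA (8mer), TGAATGT (7mer-m8) and GAATGTA (7mer-A1), on the transcript's strand, each position once and as the longest match. Of the members 15 held at least 1 in their longest annotated 3' UTR, and all of these were tested, which is 30% of the 50 members tested beside 18.7% of all genes tested and 23.1% of those with an annotated 3' UTR, which every member has. The members' median 3' UTR length was 1949 bases, against 1153 bases over the genes tested that have one. Rab30 held the most, with 6 matches in a 3' UTR of 8596 bases, and Rab27a was among the members with a 7mer-m8. Examples are shown for Rab27a, Rab11a, Rab32 and Rab21, which DESeq2 and limma called higher, and for Rab30, with the most matches. They were picked with these values known and do not stand for all 15. Rab11b, Rab33b and Rab6b also held an 8mer, at log2 fold changes of 0.045, 0.15 and -0.14, and are not shown. The match is in capitals and its flanks in lower case.
Rab27a 7mer-m8 match: tctcaaacacgTGAATGTcaataagtgtg
Rab11a 7mer-m8 match: gtttaataaacTGAATGTttgaagttctc
Rab32 7mer-m8 match: tgtgtgttgaaTGAATGTggttagttcta
Rab21 7mer-A1 match: gagtcgctggaGAATGTAttcctaccttc
Rab30 8mer match: acattattgtaTGAATGTAttactaatact
Rab30 8mer match: tgtgcaaagaaTGAATGTAtttaacaaaat
In GRCm38 the Rab27a match shown lies at chr9:73095924-73095930 on the forward strand, that of Rab11a at chr9:64716616-64716622, that of Rab32 at chr10:10545214-10545220 and that of Rab21 at chr10:115288871-115288877, all 3 on the reverse strand, and the Rab30 8mers at chr7:92842201-92842208 and chr7:92844428-92844435 on the forward strand.

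The members with a match showed no steady difference from the others. Their median log2 fold change was 0.14, with 10 of 15 above 0, and that of the 35 members tested without a match 0.19, with 28 of 35 above 0. DESeq2 called 4 of the 15 with a match and 3 of the 35 without one higher, and limma 4 and 2. Without KO replicate 4 the order of the medians turned, at 0.17 with and 0.16 without a match, and without WT replicate 1 they were 0.060 and 0.16. Over all genes the corresponding medians were -0.052 for 3167 genes with a match and 0.020 for 10531 with a 3' UTR and none, and genes with a match were longer, at a median of 6051 exon bases. Of these 3167 and 10531 genes DESeq2 called 102 and 698 higher, and limma 63 and 406. Rab27a, Rab11a, Rab32 and Rab21 lay among the higher members and Rab30, with the most matches, had the lowest log2 fold change of the 50. A match of letters is a description and does not show that the microRNA acts there.

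The other genes of the Rab cycle lay more often below 0, with 43 above and 70 below, but with length and GC trends taken out 66 lay above and 47 below, or 58.4% above beside 56.2% of all genes under the same correction. Of 116 genes listed 113 were tested, of which 1 rose, 1 fell and 111 did not pass. Over all genes tested 0.938% were called higher and 1.52% lower, so neither count stood out. The median log2 fold change of the 113 genes was -0.062. Unadjusted p-values under 0.05 were found for 4 higher and 21 lower and no overlap for 8 higher and 27 lower, beside the shares of all genes given above. With length and GC trends taken out the counts at an unadjusted p under 0.05 were 8 and 5, beside 14.5% and 8.39% of all genes. The median exon length of these genes was 6429 bases, well above that of the Rab genes. The gene that rose was Rabac1, a membrane protein that helps to free Rabs from GDI, at 64.6, 73.6 and 74.8 CPM in WT and 107, 91.4 and 109.5 CPM in KO. The log2 fold change was 0.53 ± 0.10, with no overlap (edgeR adjusted p = 0.0365). Leaving out any WT library or KO replicate 4 ended the call, with adjusted p between 0.0634 and 0.142. The gene that fell was Usp6nl, a GAP for Rab5, at 49.3, 41.7 and 50.1 CPM in WT and 34.6, 31.2 and 26.7 CPM in KO, with a log2 fold change of -0.61 ± 0.12 (edgeR adjusted p = 0.0386). The call ended when WT replicate 1, WT replicate 4 or KO replicate 4 was left out (adjusted p between 0.119 and 0.136), with the Xist covariate (log2 fold change -0.59, adjusted p = 0.0675) and with length and GC trends taken out (-0.49, adjusted p = 0.0508), with the same direction throughout.

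The side of the GEFs and GAPs turned with the length and GC correction, which left 19 of 33 GEFs and 23 of 30 GAPs above 0, or 57.6% and 76.7%, beside the all-gene share of 56.2% under it. In the uncorrected fit, the 8 prenylation and GDI genes had a median of 0.089, with Gdi2, the widely expressed GDI, at 0.19 (edgeR adjusted p = 0.256) and Rabggta, a transferase subunit, at 0.20. Of 33 GEFs 11 lay above and 22 below 0, with a median of -0.062. The GEFs of smallest p were Dennd2c at -0.53, Rab3il1 at -0.47 and Dennd6a at -0.26, with edgeR adjusted p between 0.0819 and 0.117. Of 30 GAPs 14 lay above and 16 below, with a median of -0.0087. After Usp6nl came Evi5 at -0.37, Tbc1d20, a GAP for Rab1, at 0.32, and Rabgap1l at -0.33, none past the threshold (edgeR adjusted p from 0.0666 to 0.1005).

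Effectors of granule Rabs, 11 of 14 tested, had a median of -0.11, with 5 above and 6 below 0. That median turned to 0.13 without KO replicate 3, 0.088 without WT replicate 3 and 0.075 with the Xist covariate, and was -0.38 without KO replicate 2, and -0.19 and -0.18 without WT replicates 1 and 4 in turn, so its side rests on single libraries. The smallest p belonged to Rims3, Mlph, Rims2 and Sytl2, at -0.54, 0.95, -1.16 and -0.39, all scarce, the highest being Rims3 at 3.16 ± 0.463 CPM in WT (SD, n = 3). Unc13d, which encodes the granule priming factor that Rab27a recruits in leukocytes and was named for that role after its values were seen, measured 118, 150.4 and 127 CPM in WT and 149, 138 and 138 CPM in KO. Its groups overlapped, with a log2 fold change of 0.10 ± 0.10 (edgeR adjusted p = 0.584). Of 31 other effectors 7 lay above and 24 below 0, with a median of -0.12, or 22.6% above beside 48.9% of all genes. With length and GC trends taken out 13 lay above and 18 below, with a median of -0.021, or 41.9% above beside 56.2% of all genes. The number lower at an edgeR unadjusted p under 0.05 went from 7 to 1 with that correction. In the uncorrected fit Rab11fip2, an effector of Rab11, had a log2 fold change of -0.56 ± 0.13 and did not pass (edgeR adjusted p = 0.0522). Bicd1, Eea1 and Spag9, at -0.54, -0.26 and -0.22, did not pass either.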

How the data were processed

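Trimmomatic 0.36, STAR 2.5.2b, Subread 1.5.2, featureCounts and the build GRCm38 are named, per the submitters' processing notes, without order or settings. Annotation release, strand setting and multi-mapping treatment were not given in the sources used here. Deposited values were raw read counts per Ensembl gene for 3 WT and 3 KO libraries. Identifiers were matched to GENCODE M21 (GRCm38), with a symbol for 49056 of 49315, and the rest held 0.0171% of counts. Counts were tested with edgeR 4.0.16 (R 4.3.3): filterByExpr by group, TMM, robust quasi-likelihood test, two-sided, Benjamini-Hochberg adjustment over all genes tested, threshold 0.05. The filter requires about 0.263 CPM in 3 libraries, which 48 of the 50 members tested reached in all 6. SE is the log2 fold change over the root of F. RPKM divides TMM-scaled CPM by merged exon length. Floors cover counting error only. An exact permutation of 3 against 3 libraries cannot give a p under 0.1, so no such test was used. The fit was tested on simulated counts. Alternatives were other scalings, filters, DESeq2 1.42.0, limma 3.58.1 with quality weights, the replicate block, a covariate for Xist above 1 CPM, removal of length and GC trends, haemoglobin, mitochondrial and immunoglobulin genes left out, and each library left out.

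Members and lists were chosen with earlier results of these data known. Full values were given for granule members tested, called members (none), the 8 others of smallest p, the 5 of highest RPKM, the log2 fold changes of close relatives, and up to 4 genes of each Rab cycle list with the smallest p. Protein sequences were not used here, and a few items of these lists are not reported here.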

Additional observations from a re-analysis of the deposited data

How the results depend on the processing

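Under 16 alternatives, 764 of 795 values of single Rab members kept their direction, and the 31 that changed sign belonged to 13 members that were called in neither fit. The median of the Rab members tested was 0.23 with length and GC trends removed, 0.10 with library totals and 0.15 with the replicate block. For granule members it was 0.13 with library totals, 0.28 with no filter and 0.080 with the block, and for the other members 0.22 and 0.089 with trends removed and with totals. Called higher and lower over all genes were 857 and 784 with DESeq2, 495 and 562 with limma, 653 and 839 with no filter, 87 and 403 with totals, 76 and 133 with the Xist covariate, and 158 and 161 with trends removed. Rab members called numbered 7 higher and 1 lower with DESeq2, 6 and 1 with limma, 4 and 1 with no filter, and 2 and 0 with trends removed. Rab cycle genes called numbered 3 higher and 6 lower with DESeq2, 1 and 3 with limma or totals, 1 and 6 with no filter, 1 and 0 with the covariate or trends removed, and 1 and 2 with genes under a mean log2 CPM of 1 dropped or with haemoglobin, mitochondrial and immunoglobulin genes left out.

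With a library left out, genes called higher ranged from 6 (without WT replicate 1) to 316 (without KO replicate 3) and lower from 23 (without KO replicate 4) to 604 (without KO replicate 3). Rab members called ranged from 0 to 2 higher and 0 to 1 lower, and Rab cycle genes from 0 to 2 in either direction. Over the members tested in each such fit, the medians ranged from 0.15 to 0.22 for all Rab members, 0.13 to 0.24 for granule members and 0.14 to 0.22 for the others, and over the 50 members of the full fit from 0.13 to 0.20. The replicate block gave 212 higher and 359 lower calls over all genes, 0 Rab members, and 0 higher and 3 lower Rab cycle genes, Rabac1 no longer passing (edgeR adjusted p = 0.0808). Libraries sharing number 3 or 4 had deviations that correlated at 0.21 and -0.14 across genes, and as only these 2 numbers were shared, they were not taken to pair the libraries. With 3 libraries a group and differences of this size, calls of Rab genes depended on the tool and on single libraries. For members near 0.1 CPM the depth allows no comparison.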
